A study of Mus musculus with 10 samples.

Results

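The genes described here encode regulatory subunits of the sodium pump: the beta subunits Atp1b1, Atp1b2 and Atp1b3, and the FXYD proteins Fxyd3 and Fxyd5. The sodium pump (Na,K-ATPase) uses ATP to move sodium out of the cell and potassium in. Its beta subunit is a glycoprotein that carries the catalytic subunit to the plasma membrane, and in epithelia beta subunits of neighbouring cells also bind each other. FXYD proteins are small membrane proteins that bind the pump and tune its affinity for ions. In bile duct epithelium the sodium gradient made by the pump drives bicarbonate, chloride and bile acid transport. The 5 genes were taken by symbol out of 18407 in the count table, and were selected on the difference between laminin and collagen libraries in these same data. Their differences between the matrices are therefore given as a description, with no test. All 5 passed the filter on low counts, as did 10789 genes of the table. The catalytic subunits are not reported here.

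Cells of the NMC line, an established line of normal mouse cholangiocytes (the epithelial cells of bile ducts), were kept for 6 days in double spheroids without further treatment. The 5 collagen libraries came from collagen I at 1 mg/mL, and the 5 laminin libraries from laminin mixed with collagen I at 3:1 by volume, so that the laminin group also had collagen I. The labels call the replicates biological but do not say how cultures were divided, and all cells were of the same line, so that p-values measure the spread between these libraries. Each library has a code letter of unstated meaning: collagen replicates 1 to 3 carry B, collagen replicates 4 and 5 carry D, laminin replicates 1 to 3 carry E and laminin replicates 4 and 5 carry F. No letter occurs in both matrices, so a batch following the letter cannot be told apart from the matrix itself.

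Total counts ran from 4424725 to 8129979 per library, and even the closest pair, collagen replicates 1 and 2, differed by more than counting noise (chi-square per degree of freedom 3.32). Of 15 cholangiocyte markers 12 had a mean of 1 CPM or more (CPM are counts scaled to the library total with TMM factors), led by the keratins Krt8, Krt19 and Krt18, while Sctr, the secretin receptor gene, was at 0 in every library. Their summed level ran from 3753 to 5755 CPM in collagen and from 3787 to 5473 CPM in laminin. Hepatocyte markers, led by Hnf4a, Alb and Ttr, summed to 88.8 to 137 CPM in collagen and 136 to 186 CPM in laminin, with Cyp3a11 and Cyp2e1 at 0. These sums were higher in laminin, as Atp1b1 was, apart from a narrow overlap, and their part in the results was not tested. Fibroblast and stellate markers, nearly all Fbln2 (mean 644 CPM) with Col1a1 and Pdgfra next, summed to 600.4 to 757 CPM and 613 to 756 CPM, with Lrat at 0. Within that list, and chosen after their values were seen, Pdgfrb was at 0.424 to 0.802 CPM in collagen against 1.26 to 6.08 CPM in laminin, and Dcn was lower in every laminin library (6.35 to 9.64 CPM in collagen, 2.30 to 5.25 CPM in laminin, edgeR adjusted p = 0.070). Pdgfra averaged 4.01 ± 1.15 CPM in the collagen libraries and 9.30 ± 3.98 CPM in the laminin libraries (SD, n = 5 per group, edgeR adjusted p = 0.20). Endothelial markers (led by Vwf, Pecam1 and Tek) reached at most 2.72 CPM, and leukocyte markers (led by Cd68, Csf1r and Itgam) at most 8.55 CPM. Glial and neuronal markers, which matter here because Atp1b2 is abundant in glia, summed to 52.0 to 58.6 CPM over all libraries. Mbp made up most of it, ahead of Tubb3 and Slc1a3, and Aqp4, Mog, Sox10, Rbfox3 and Snap25 were at 0. Slc1a3, a glutamate transporter of astrocytes, was higher in every laminin library, at 1.26 to 5.54 CPM (83 counts in all) against at most 0.365 CPM in collagen (5 counts). Its part in the results for Atp1b2 and Atp1b1 was not tested.

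The stretches upstream of 3 of the members, Atp1b1, Atp1b3 and Fxyd3, are shown. No upstream sequence was at hand for Atp1b2. For Fxyd5 only 31 bases lay outside annotated exons, below the minimum of 150. Atp1b1 separated the matrices, Atp1b3 varied little between libraries, and Fxyd3 varied widely within each matrix. The sequences are from RefSeq on GRCm38.p6, on the minus strand, and leave out any base in an annotated exon. They cover chr1:164458356-164458605 (Atp1b1), chr9:96364443-96364681 (Atp1b3) and chr7:31076705-31076947 (Fxyd3). Capitals mark matches on either strand to the GC box (GGGCGG), to the CCAAT box as spelled by its name, and to a TATA-type box (TATANA).
Atp1b1: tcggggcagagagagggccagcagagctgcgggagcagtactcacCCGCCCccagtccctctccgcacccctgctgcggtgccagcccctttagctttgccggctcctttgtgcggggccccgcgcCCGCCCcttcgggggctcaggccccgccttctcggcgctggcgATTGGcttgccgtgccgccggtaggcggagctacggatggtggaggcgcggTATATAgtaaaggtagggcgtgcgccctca
Atp1b3: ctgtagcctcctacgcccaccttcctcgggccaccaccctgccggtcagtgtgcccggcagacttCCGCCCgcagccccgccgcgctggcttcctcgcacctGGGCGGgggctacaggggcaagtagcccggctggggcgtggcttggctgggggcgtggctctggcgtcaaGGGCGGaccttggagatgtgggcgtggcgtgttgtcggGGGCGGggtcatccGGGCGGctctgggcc
Fxyd3: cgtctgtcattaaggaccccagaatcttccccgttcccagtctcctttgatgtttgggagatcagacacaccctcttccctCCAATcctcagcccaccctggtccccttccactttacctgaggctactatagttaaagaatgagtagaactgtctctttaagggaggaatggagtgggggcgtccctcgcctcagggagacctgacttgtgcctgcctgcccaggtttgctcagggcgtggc

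The Atp1b1 stretch held 2 GC boxes, 1 CCAAT box and 1 TATA-type box, the last beginning 30 bases before the start of transcription. The Atp1b3 stretch held 5 GC boxes and neither of the other motifs, and the Fxyd3 stretch held 1 CCAAT box only. A further Atp1b3 start in RefSeq, at 96363715, had none of these motifs in its 250 bases. GC content was 70.4% for Atp1b1, 73.6% for Atp1b3 and 55.1% for Fxyd3. Over 32851 RefSeq windows of 250 bases before a start, 32.7% held a GC box, 33.9% a CCAAT box and 22.6% a TATA-type box. The glucocorticoid receptor half-site AGAACA, found in 16.1% of the windows, was in none of the 3 stretches. These matches describe letters only.

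Atp1b1 was the most abundant of the 5 transcripts and was higher in laminin than in collagen in every library. It encodes the main beta subunit of epithelial pumps. In collagen it stood at 410, 347, 408, 339 and 318 CPM in replicates 1 to 5. In laminin it stood at 558, 566, 594, 593 and 588 CPM. The highest collagen library was thus well below the lowest laminin library, and the laminin libraries lay close together, with a coefficient of variation of 2.86% against 11.6% in collagen. The group means were 364 ± 42.1 and 580 ± 16.6 CPM (SD, n = 5 per group), a fitted difference of 0.67 on the log2 scale (SE 0.10), or 1.59-fold. With counts scaled to plain library totals, the scale named in the rule for the members, the ratio of the means was 1.58 and the coefficients of variation were 5.09% in laminin and 11.5% in collagen. As these are bulk libraries, fewer cells of a type and less RNA per cell cannot be told apart. Over 21 alternative fits the log2 difference stayed between 0.58, without the collagen libraries of letter D, and 0.79, without those of letter B.

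Among all genes tested, 16 passed the laminin against collagen comparison in edgeR's quasi-likelihood test at an adjusted p below 0.05 (Benjamini-Hochberg), which is 0.148%. Group ranges with laminin above collagen throughout were found for 1.94% of genes, and for 1 of the 5 members, Atp1b1. Since the members were chosen with this contrast in view, these shares are printed as context only.

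Atp1b1 lies on chromosome 1 from 164437109 to 164458355 (GRCm38, minus strand), and its longest annotated transcript has 6 exons and 2580 nt. Exons of Nme7 on the opposite strand overlap 18.7% of its exonic bases. Nme7, a kinase family member of the centrosome and cilium, ranged from 31.4 to 44.6 CPM (collagen) and from 26.5 to 33.4 CPM (laminin). Its log2 difference was -0.29 (SE 0.12, edgeR adjusted p = 0.388), which is opposite in sign to that of Atp1b1 and from a level far below it.

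**Figure D1:**
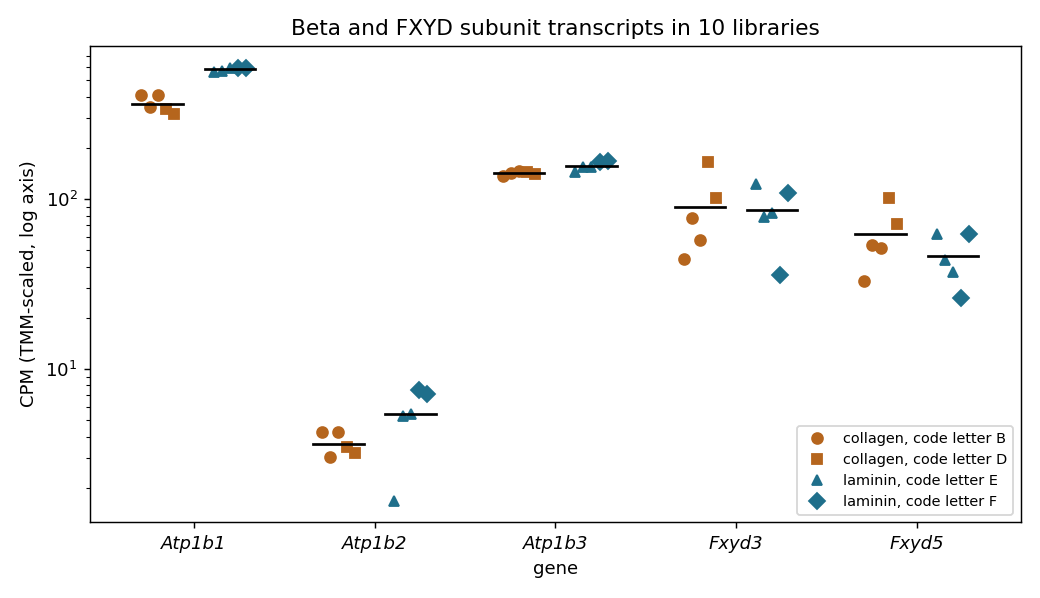
Level of each of the 5 transcripts in each library, in CPM on a log axis. Points are libraries, colour gives the matrix, marker shape the code letter, and the bar is the group mean. Atp1b1 in laminin (558 to 594 CPM) lies above collagen (318 to 410 CPM), while the groups overlap for the other 4 genes.

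Atp1b3, the other beta subunit that epithelia make widely, varied little between libraries. It stood at 137, 142, 147, 145 and 140 CPM in the collagen libraries and at 143, 155, 155, 165 and 167 CPM in the laminin libraries. The groups overlapped, because laminin replicate 1 lay within the collagen range, and the other 4 laminin libraries lay above it. Means were 142 ± 3.77 and 157 ± 9.25 CPM (SD, n = 5 per group), a log2 difference of 0.14 (SE 0.08). Once trends on length and GC content were subtracted from each library, the difference was 0.23, and the SD of log2 CPM was 0.085 in place of 0.038 in collagen and 0.10 in place of 0.086 in laminin. Without that step, the pooled SD of log2 CPM within the groups was 0.066 for Atp1b3, and only 0.482% of the genes tested had a smaller one. Among the 3162 genes within 2-fold of its level the share was 0.949%. For Atp1b1 the SD was 0.12, and 7.95% of genes had a smaller one, or 14.4% of those within 2-fold of its level. Atp1b3 lies on chromosome 9 from 96332655 to 96364442 and has a longest transcript of 1994 nt with 7 exons.

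Atp1b2, an adhesion molecule and pump subunit best known from glia, was rare in these cells. It gave 30, 17, 35, 17 and 20 counts in the collagen libraries and 12, 29, 34, 50 and 31 counts in the laminin libraries. Scaled, that was 4.24, 3.03, 4.25, 3.46 and 3.21 CPM for collagen, and 1.68, 5.27, 5.44, 7.49 and 7.14 CPM for laminin. Laminin replicate 1 was the lowest of all 10 libraries, and the other 4 laminin libraries were above every collagen library. The log2 difference was 0.54 (SE 0.33), and 0.78 without laminin replicate 1. It was 0.13 without the laminin libraries of letter F, which were the highest, and 0.97 without those of letter E. Atp1b2 lies on chromosome 11 from 69599736 to 69605942, with a longest transcript of 3751 nt.

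Levels of different genes can be compared only per length, and CPM were therefore divided by the kilobases of the longest annotated transcript. On this scale Atp1b1 stood at 141 CPM per kb in collagen and 225 in laminin, Atp1b3 at 71.3 and 78.7, and Atp1b2 at 0.970 and 1.44. Fxyd3 stood at 30.8 and 29.7 CPM per kb and Fxyd5 at 20.7 and 15.5. The order was the same in both matrices, with Atp1b1 first and Atp1b2 last. The ranges of Fxyd3 and Fxyd5, neighbours in that order, overlapped when different libraries were compared. Within each library Fxyd3 was the higher, at 53.7 to 62.9% of the pair in collagen and 58.7 to 69.8% in laminin. The order depends on the length assumed. Per kb of the shortest coding transcript, Fxyd3 stood at 261 (collagen) and 251 (laminin) and Fxyd5 at 176 and 131, all above Atp1b3.

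The makeup of the beta subunit transcripts differed between the matrices. Atp1b1 supplied 69.4, 65.1, 67.9, 64.1 and 63.4% of beta transcripts (CPM per kb) in collagen replicates 1 to 5. In laminin it supplied 74.9, 73.5, 74.4, 73.1 and 72.7%. No laminin library was as low as any collagen library. The means were 66.0 ± 2.57% and 73.7 ± 0.906% (SD, n = 5 per group). The share of Atp1b3 went the other way, from 33.6 ± 2.60% to 25.8 ± 0.739%, although its own level was not lower in laminin. Atp1b2 made up less than 0.65% in every library, from 0.155 to 0.636%. Summed over the 3 genes, beta transcripts ran from 194 to 233 CPM per kb in collagen and from 289 to 314 in laminin. The shares depend on the length assumed. With the shortest coding transcript of each gene, Atp1b1 supplied 88.5% in collagen and 91.7% in laminin, and Atp1b3 7.81% in laminin. The ratio of Atp1b1 to Atp1b3 counts needs no length, and was 2.27 to 2.98 in collagen and 3.53 to 3.89 in laminin. These values rest on the contrast that chose the genes and carry no test.

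**Figure D2:**
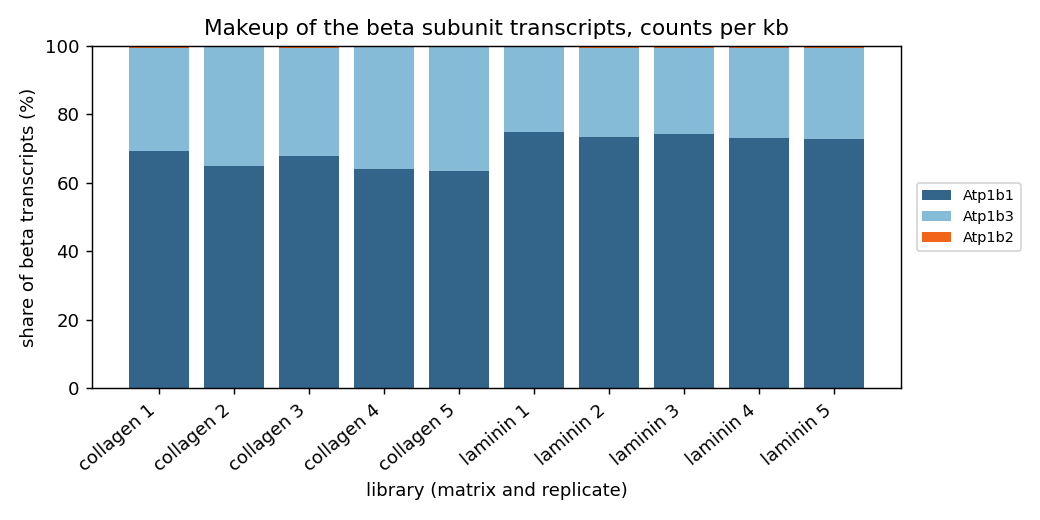
Share of each beta subunit gene in the summed beta transcripts (CPM per kb of the longest transcript, in percent) for each library. Atp1b1 makes up 63.4 to 69.4% in collagen and 72.7 to 74.9% in laminin, and the Atp1b2 band is under 0.65% and barely visible.

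Fxyd3 and Fxyd5 varied widely between libraries of the same matrix. Fxyd3, also known as Mat-8, modulates the pump in several epithelia. It stood at 44.3, 77.8, 57.6, 165 and 101 CPM in collagen replicates 1 to 5. The laminin replicates had 123, 78.5, 83.3, 36.0 and 108.8 CPM. Collagen replicate 4 was the highest library and laminin replicate 4 the lowest, and the groups overlapped almost completely. Means were 89.2 ± 47.6 and 85.9 ± 33.4 CPM (SD, n = 5 per group), a log2 difference of -0.05 (SE 0.36). The sign of this difference was not stable: leaving out collagen replicate 4 gave 0.29, leaving out laminin replicate 4 gave 0.12, and it was 0.52 without the letter D libraries and -0.66 without the letter B libraries.

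Fxyd5, also called dysadherin for its action against E-cadherin adhesion, varied over the libraries much as Fxyd3 did. It stood at 33.0, 53.7, 51.5, 101 and 70.9 CPM in the collagen replicates. The laminin replicates had 62.0, 44.0, 37.3, 26.2 and 62.4 CPM. Collagen replicate 4 was again the highest and laminin replicate 4 the lowest, and the groups overlapped. Means were 62.0 ± 25.6 and 46.4 ± 15.8 CPM (SD, n = 5 per group), a log2 difference of -0.42 (SE 0.29). Leaving out collagen replicate 4 gave -0.18, and it was 0.0046 without the letter D libraries and -0.92 without the letter B libraries. The pooled SD of log2 CPM within the groups was 0.71 for Fxyd3 and 0.56 for Fxyd5, above those of 98.1% and 94.5% of the genes tested. Among genes within 2-fold of their level the shares were 99.5% and 97.7%.

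Both genes lie on the minus strand of chromosome 7, Fxyd3 from 31068172 to 31076704 and Fxyd5 from 31032722 to 31042481. The longest annotated transcripts have 2894 nt and 2998 nt, but the shortest coding ones have 342 nt and 353 nt, and the table does not tell which was counted. Exons of Lgi4 on the opposite strand overlap 42.5% of the exonic bases of Fxyd3. Lgi4 was at 0.230 to 1.76 CPM, far below Fxyd3 in every library.

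After the mean of each matrix was subtracted, which removes the contrast that chose the genes, Fxyd3 and Fxyd5 rose and fell together over the 10 libraries. Pearson's r was 0.96 (exact permutation p = 2.8e-04, adjusted 0.0042) and Spearman's rho on within-group ranks 0.90 (exact permutation p = 0.0043, adjusted 0.032). The p-values are two-sided, over 14400 pairings within the groups, and adjusted by Benjamini-Hochberg over the 15 relations computed among the members and the length slope described next. Without collagen replicate 4 and laminin replicate 4, r was 0.93. The pairings treat the libraries of a matrix as exchangeable, although in collagen both genes were higher in letter D than in letter B. The part of the code letter in r was not tested. Genes outside the members reached a higher r with each of the pair, such as Lgals2 with Fxyd3 and Tagln2 with Fxyd5 (both 0.99). The share of all genes that did so was not computed. Among the beta subunits, r was 0.84 for Atp1b2 with Atp1b3 (exact permutation p = 0.016, adjusted 0.047), with rho 0.60 (exact permutation p = 0.11, adjusted 0.20), and 0.52 without laminin replicates 1 and 4. For Atp1b1 with Atp1b2 r was 0.41 (exact permutation p = 0.0060, adjusted 0.030), with rho 0.65 (exact permutation p = 0.076, adjusted 0.16), and 0.45 without collagen replicates 1 and 5. For the FXYD pair, within the 5 collagen libraries r was 0.98, and within the 5 laminin libraries 0.94. For Atp1b2 with Atp1b3 r was 0.05 in collagen and 0.95 in laminin. For Atp1b1 with Atp1b2 r was 0.90 in collagen and 0.80 in laminin. The ratio of Fxyd3 to Fxyd5 counts moved little by comparison, from 1.12 to 1.64 in collagen and from 1.37 to 2.24 in laminin.

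Deviations of a library from the mean of all libraries leaned on transcript length, and both FXYD genes followed that measure. The slope of log2 CPM deviations on length ran from -0.37 to 0.18 log2 units per doubling in collagen and from -0.11 to 0.16 in laminin. The lowest slope was that of collagen replicate 4, where short transcripts were relatively high and where both FXYD genes peaked. Within groups, r with the slope was -0.87 for Fxyd5 (exact permutation p = 0.0021, adjusted 0.016) and -0.77 for Fxyd3 (exact permutation p = 0.015, adjusted 0.047). Spearman's rho was -0.90 (exact permutation p = 0.0043, adjusted 0.032) and -0.75 (exact permutation p = 0.034, adjusted 0.10). Without the 2 libraries farthest from the median of each gene, r was -0.74 for Fxyd5 and -0.72 for Fxyd3. The slope was itself fitted on genes tested in these same libraries, members included, so other genes follow it too. The share of all genes that followed the slope as closely was not computed. The p-values therefore do not set the FXYD genes apart from other genes. For Atp1b1 r with the slope was 0.50 (exact permutation p = 0.30, adjusted 0.45), with rho 0.75 (exact permutation p = 0.034, adjusted 0.10), and r was 0.22 without its 2 farthest libraries. Once the fitted trends on length and GC content were subtracted, the SD of Fxyd3 within collagen was 0.65 in place of 0.73, and that of Fxyd5 0.53 in place of 0.59. Within laminin the SD was 0.67 in place of 0.69 for Fxyd3 and 0.51 in place of 0.52 for Fxyd5. For Atp1b1 the same step gave a larger SD, 0.21 in place of 0.17 in collagen and 0.061 in place of 0.042 in laminin. The trend was fitted on the longest transcript, so its part in the spread of genes with much shorter forms was not tested.

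**Figure D3:**
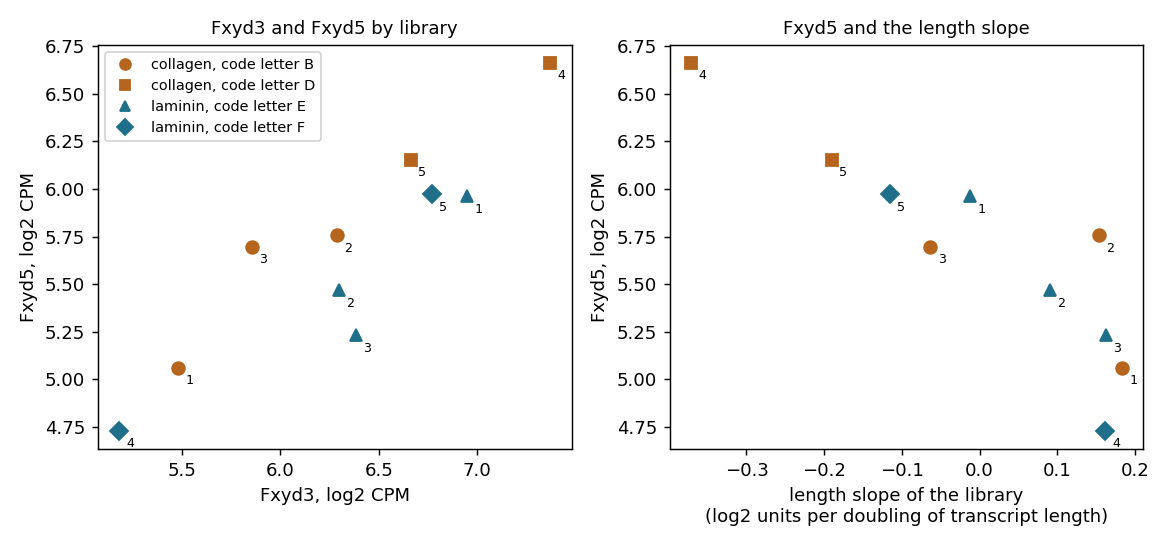
Left, log2 CPM of Fxyd5 against log2 CPM of Fxyd3; right, log2 CPM of Fxyd5 against the length slope of the library. Points are libraries, labelled by replicate number, with colour for the matrix and shape for the code letter. The pair moves together, collagen replicate 4 is highest in both genes, and Fxyd5 is lower where the slope is higher.

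Within a matrix, the code letters gave a comparison that did not use laminin against collagen, and the members were tested in it. In collagen, letter D was higher than letter B for Fxyd3, at a mean of 133 CPM (2 libraries) against 59.9 CPM (3 libraries), and for Fxyd5, at 85.9 against 46.1 CPM. Fxyd3 ran from 101 to 165 CPM in letter D and from 44.3 to 77.8 CPM in letter B. Fxyd5 ran from 70.9 to 101 CPM in letter D and from 33.0 to 53.7 CPM in letter B. Atp1b1 ran from 318 to 339 CPM in letter D and from 347 to 410 CPM in letter B. The share of all genes with ranges as far apart was not computed, so nothing is read from these ranges. The log2 differences were 1.15 (SE 0.38, edgeR adjusted p = 0.055) for Fxyd3 and 0.90 (SE 0.33, edgeR adjusted p = 0.071) for Fxyd5, which missed the threshold. Atp1b1 gave -0.24 (SE 0.13, edgeR adjusted p = 0.19), Atp1b2 -0.22 (SE 0.44, edgeR adjusted p = 0.74) and Atp1b3 0.0034 (SE 0.12, edgeR adjusted p = 0.99). Thus 0 of 5 members passed in edgeR, against 15.8% of all genes tested, while 2 had an unadjusted p under 0.05, as had 37.3% of all genes. DESeq2 called 1 member, Fxyd5 (adjusted p = 0.033), and 22.4% of all genes. The 1708 genes behind the edgeR share of 15.8% depended on single libraries. Leaving out collagen replicate 1 or 2 gave 0 in edgeR (with 2545 and 2953 genes whose unadjusted p was under 0.05). Without collagen replicate 3, 3655 passed. The range of the edgeR and DESeq2 adjusted p over the alternatives was 0.0075 to 0.48 for Fxyd3 and 0.017 to 0.50 for Fxyd5. Fxyd3 also passed with no filter (0.0075) or plain library totals (0.0497), and Fxyd5 with no filter (0.017). Fxyd3 passed without laminin replicate 1 (0.048), 4 (0.020) or 5 (0.020), and Fxyd5 without laminin replicate 4 (0.026) or 5 (0.028), in edgeR. After subtraction of length and GC trends the differences were 0.98 for Fxyd3 (edgeR adjusted p = 0.12) and 0.78 for Fxyd5 (0.14). The letter D libraries also had the lowest length slopes of all libraries, at -0.37 and -0.19. Those of letter B had 0.18, 0.15 and -0.06. Within collagen, letter and slope therefore cannot be told apart.

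In laminin, letter F minus letter E gave 0 of 5 members in edgeR, as it gave 0% of all genes, with no member at an unadjusted p under 0.05 and none called by DESeq2. Atp1b2 came nearest, at 7.32 CPM in letter F (2 libraries) and 4.13 CPM in letter E (3 libraries), a log2 difference of 0.85 (SE 0.40, edgeR adjusted p = 1.00). Atp1b1 gave 0.04 (SE 0.13), Atp1b3 0.13 (SE 0.12), Fxyd3 -0.41 (SE 0.39) and Fxyd5 -0.13 (SE 0.34). Without laminin replicate 4 the last 2 were 0.19 and 0.38.

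**Figure D4:**
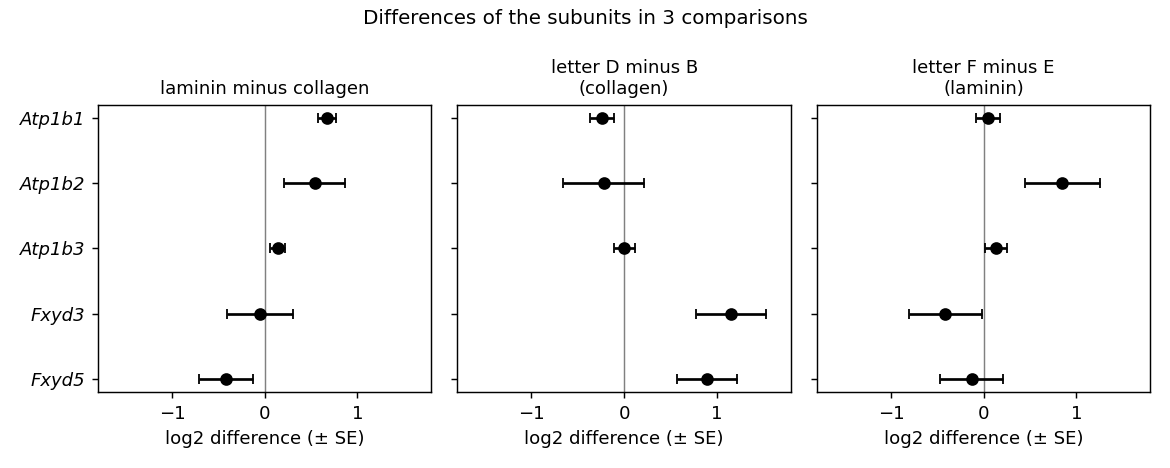
Log2 difference of each of the 5 genes in 3 comparisons, with bars of 1 SE from the edgeR fit. Atp1b1 lies at 0.67 for laminin minus collagen. The 2 FXYD genes lie near 1 for letter D minus B within collagen, and below 0 in the other comparisons.

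The remaining FXYD and beta genes and the related proton-potassium pumps were near or at 0. Fxyd2, Fxyd4, Fxyd7, Atp1b4, Atp4b and Atp12a had no count in any library, which allows up to 0.365 to 0.691 CPM per library (3 counts, counting error only). Fxyd1 had 8 counts in 4 libraries, Atp4a 3 counts and Fxyd6 1 count over all 10. None of these 9 genes passed the filter on low counts. Fxyd2 is the gamma subunit known from kidney, Fxyd1 is phospholemman of heart and muscle, and Atp4a, Atp4b and Atp12a form proton-potassium pumps.

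Genes whose within-group pattern over the 10 libraries was most like that of a member were taken from 9810 tested genes, by Pearson's r after subtraction of the group means. For Fxyd3 they were Lgals2 (r = 0.99), Anxa8 (0.99), Wfdc2 (0.99), Ephx2 (0.97) and Tm4sf1 (0.97). For Fxyd5 they were Tagln2 (0.99), Fam50a (0.99), Stambpl1 (0.98), Calm2 (0.98) and Txndc17 (0.97). All 10 had a positive log2 difference for letter D minus B, from 0.21 for Calm2 to 1.09 for Lgals2, a contrast that is part of the pattern they were matched on. For Atp1b1 the nearest were Crocc (0.94), Bnip2 (0.93), Harbi1 (0.91), Ctso (0.90) and Tm7sf3 (0.89). Without the subtraction they were Ece1 (0.95), Zfp687 (0.94), Clcn6 (0.94), Sipa1l2 (0.94) and Pak6 (0.93). For Atp1b2 they were Dusp12 (0.94), Degs1 (0.93), Zfp119a (0.91), Ttc8 (0.91) and Bcl7a (0.90), and for Atp1b3 Dctd (0.90), Mpv17 (0.90), Angptl4 (0.89), Alkbh4 (0.88) and Kctd2 (0.88). These are the top values of many correlations over the same libraries, which share depth and length slope, and are a description.

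Genes that work beside the pump were read from 5 lists and tested for laminin minus collagen. The lists were chosen with earlier results of these data known, so their counts beside the shares of all genes are a description. Among channels and cotransporters for potassium and chloride, 1 of 15 tested genes rose and 0 fell, against 0.148% of all genes in either direction. It was Slc12a7, a potassium-chloride cotransporter, with means of 255 ± 16.2 CPM (collagen) and 397 ± 36.7 CPM (laminin; SD, n = 5 per group), a log2 difference of 0.64 (SE 0.10, edgeR adjusted p = 0.024). Library values of 232 to 274 CPM and 337 to 429 CPM did not overlap. The log2 difference stayed between 0.58 and 0.69 when single libraries were left out. The call was lost with the replicate block (log2 difference 0.63, edgeR adjusted p = 0.23) and without letter D (edgeR adjusted p = 0.066), E (0.54) or F (0.060). It was also lost without collagen replicate 1 (edgeR adjusted p = 0.063), 2 (0.098), 3 (0.080) or 5 (0.085), or laminin replicate 2 (0.12) or 3 (0.12), and once length and GC trends were subtracted (log2 difference 0.40, adjusted p = 0.13). Over the alternatives its adjusted p ran from 2.1e-08 to 0.54. Clcn2, a chloride channel, gave 0.61 (SE 0.17), Lrrc8a, a volume-regulated anion channel subunit, -0.07 (SE 0.13), and Kcnn4, a calcium-activated potassium channel, -0.19 (SE 0.23). The median over the list was 0.19, beside 0.0094 over all genes tested.

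A list of sodium-coupled carriers and sodium channels, which also holds Slc7a5 and Slc29a1 although these carriers do not need sodium, gave 0 of 23 calls in edgeR. At an unadjusted p under 0.05 there were 5, and DESeq2 called 2, Slc8b1 and Slc10a2, both higher. Over all genes tested these shares were 11.7% and 1.94%, which also stand beside the counts of the lists that follow. Slc10a2, the apical bile acid transporter that runs on the sodium gradient, averaged 3.99 ± 1.21 CPM (collagen) and 9.13 ± 3.44 CPM (laminin; SD, n = 5 per group), a log2 difference of 1.21 (SE 0.30, edgeR adjusted p = 0.14). Slc5a3, a sodium-coupled inositol carrier, gave 0.64 (SE 0.25), and the amino acid carrier Slc7a5 and the phosphate carrier Slc20a2 gave -0.13 (SE 0.11) and -0.20 (SE 0.11). The list had 18 of 23 genes above 0, beside 51.7% of all genes, and a median of 0.14. Once length and GC trends were subtracted, Slc10a2 gave 1.24, Slc5a3 0.41, Slc7a5 -0.19 and Slc20a2 -0.23. The medians and counts above 0 of the lists were not recomputed in that way, so the part of transcript length in them was not tested.

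Other pumps of the P-type superfamily gave 0 of 20 calls in edgeR. At an unadjusted p under 0.05 there were 3, and DESeq2 called 2, both higher. These were Atp8b1, a flippase of the canalicular and apical membrane, at 1.02 (SE 0.27, edgeR adjusted p = 0.17), and Atp2a3, a calcium pump of the endoplasmic reticulum, at 0.54 (SE 0.14, edgeR adjusted p = 0.18). The lowest with a mean of at least 5 CPM were Atp10a at -0.22 (SE 0.18) and Atp11b at -0.07 (SE 0.19). The median was 0.14.

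Regulators and anchors of the pump gave 0 of 24 calls in edgeR. At an unadjusted p under 0.05 there were 5, and DESeq2 called 0. Nr3c2, the mineralocorticoid receptor, gave 0.52 (SE 0.19) and the kinase Wnk4 0.51 (SE 0.15). Ank3, which anchors the pump at the lateral membrane, gave -0.25 (SE 0.22) and Cav1 -0.40 (SE 0.23). The median was 0.087. Cell-cell adhesion partners gave 0 of 23 calls in edgeR. At an unadjusted p under 0.05 there were 3, and DESeq2 called 2, Dsp and Scrib, both higher. Dsp, the desmosomal plaque protein, averaged 160 ± 51.1 CPM (collagen) and 288 ± 62.5 CPM (laminin; SD, n = 5 per group), a log2 difference of 0.85 (SE 0.21, edgeR adjusted p = 0.13). Cdh1, the E-cadherin gene, gave 0.42 (SE 0.19), and Pkp2 and Cldn3 gave -0.14 (SE 0.14) and -0.13 (SE 0.26). The list had 19 of 23 genes above 0 and a median of 0.16. Once length and GC trends were subtracted, Dsp gave 0.62, Cdh1 0.36, Pkp2 -0.12 and Cldn3 -0.03.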

How the data were processed

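The authors deposited read counts by gene symbol, unnormalized, for the 10 libraries. Per the labels' protocols, stranded poly(A) libraries were made from 30 ng of RNA; per the submitters' processing notes, they used DESeq2 and the mm10 (GRCm38) build. Neither aligner nor counting tool, nor its strand setting, is given in the sources used here.

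Genes passing filterByExpr were fitted across all genes with edgeR 4.0.16 (R 4.3.3; TMM scaling, quasi-likelihood F test, two-sided), with p-values adjusted over all 10789 genes at a threshold of 0.05. SE is the log2 difference divided by the square root of F. Log2 CPM used a prior count of 2. Code letters were fitted as 4 groups. Alternatives were DESeq2 1.42.0, other scalings and filters, a replicate block, an offset for length and GC content (splines, 5 degrees of freedom, GENCODE M21), and libraries left out. Only the edgeR fits of laminin minus collagen and of letter D minus B were tried on simulated counts. These had the same dispersion for all genes and no length trend. The other steps were not tested in this way.

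Members, gene lists and the rule for named genes were chosen with earlier results of these data known. In each list the rule names called genes and the 2 highest and 2 lowest differences at a mean of at least 5 CPM; Slc8b1 and Scrib were named after their values were seen. The catalytic subunits and some other genes are left out.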

Additional observations from a re-analysis of the deposited data

Results flagged for a closer look

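A single library stood apart from its matrix group in 3 of the 56 gene and matrix combinations examined. By chance about 5% of them, or 2.8, would do so. Atp1b2 stood at 1.00 log2 CPM in laminin replicate 1, against 2.48 in the next library. Slc10a2 stood at 1.18 log2 CPM in collagen replicate 3, against 2.06 in the next. Cav1 stood at 7.43 log2 CPM in laminin replicate 1, against 6.48 in the next.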

How the results depend on the processing

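Of 5 members, Atp1b1, Atp1b2 and Atp1b3 kept a positive laminin minus collagen difference in all 21 alternatives. Fxyd3 was positive in 5 and Fxyd5 in 1. The count of 16 calls was 209 with DESeq2, 29 with no filter, 104 with the length and GC offset, and 5, 2083, 1 and 5 without letter D, B, E or F. It was 0 with the replicate block (1049 at an unadjusted p under 0.05). Whether the numbers pair the libraries is not stated. Same-numbered deviations correlated at -0.33 to 0.48, and 1 of 5 collagen libraries correlated best with its own number. So few correlations cannot settle it. Leaving out single libraries gave 0 to 64 calls: 0 for collagen replicates 3 and 5 and laminin replicate 2, 2 for collagen replicate 2, 5 for laminin replicates 3 and 5, 36 for laminin replicate 4 and 64 for laminin replicate 1. At an unadjusted p under 0.05 the 0 counts had 1167, 939 and 977 genes. Of the letter comparisons, D minus B (1708 calls) gave 449 with the offset and 0 to 3655 without single libraries (0 without collagen replicate 1, 2 or 4, 3655 without 3, 635 without 5, 358 without laminin replicate 2), and F minus E (0 calls) gave 1 with DESeq2 and 0 to 26 without single libraries (26 without laminin replicate 5). Without a library of letter D or F, the letter's lone sample is taken to vary as the rest do. The causes were not tested. No paired fit can be made for the letters, which divide the numbers.

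These laminin minus collagen differences changed sign. Without single libraries, Atp11b ran from -0.19 to 0.059 (positive without collagen replicate 1, and 0.011 without 2), Lrrc8a from -0.15 to 0.021 and Cldn3 from -0.27 to 0.052 (both positive without collagen replicate 4). Atp11b was 0.33 without letter B, and without letter D Lrrc8a was 0.11, Cldn3 0.25 and Kcnn4 0.15. Atp10a and Ank3 were 0.11 and 0.23 without letter B, and Cdh1 was -0.013 without letter E. For D minus B, Atp1b3 was -0.14 with the offset and ran from -0.020 (without collagen replicate 4) to 0.028 without single libraries. For F minus E, Fxyd5 ran from -0.87 to 0.38 (0.10 without laminin replicate 1, 0.38 without 4) and Fxyd3 from -1.40 to 0.19 (without 4). None of these passed the test.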
